A study of Mus musculus with 28 samples.

Results

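The endoplasmic reticulum (ER) lumen chaperones and folding factors described here are 10 genes chosen by name: Hspa5, Hsp90b1, Hyou1, Dnajb11, Dnajc3, Sdf2l1, Manf, Creld2, Pdia4 and Pdia6. All 10 were found among the 27179 gene identifiers of the count tables, and all 10 passed the filter on low counts in every fit, with 307 to 92172 counts per library. They were measured by poly(A) RNA sequencing of choroid plexus from the lateral ventricle of 28 male mice, 1 library per mouse, in 7 groups of 4. Young wild-type C57/BL6 mice of 3 to 4 months were taken in the light phase at zeitgeber time (ZT) 6, 6 h after lights on (young day), in the dark phase at ZT 18 (young night), or at ZT 6 once their sleep had been disrupted for 6 h (sleep-disrupted). Aged mice of 12 to 14 months were J20+ or J20- (wild-type) littermates, each at ZT 6 (day) or ZT 18 (night). The J20 line has a transgene for mutant human amyloid precursor protein, with mutations known from familial Alzheimer's disease, driven by the PDGF-B promoter, which is active mainly in neurons. All mice were perfused with buffered saline under isoflurane before dissection, and the labels do not say which mice share a litter.

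The ER is where secreted and membrane proteins fold. Hspa5 (BiP), an Hsp70 chaperone, binds unfolded chains there with the help of J-domain proteins and nucleotide exchange factors, while Hsp90b1 (GRP94) and disulfide isomerases act on later folding steps. When unfolded proteins build up, the sensors ATF6, IRE1 and PERK raise the transcription of these genes, largely through ATF6 and XBP1 binding to ER stress elements in their promoters. The choroid plexus epithelium makes cerebrospinal fluid and secretes large amounts of protein, transthyretin above all, so its ER carries a heavy load.

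The promoters are shown first because the ER stress element is the sequence through which this gene set is best known to be regulated together. RefSeq promoter windows (GRCm38.p6, from 250 bases before to 50 after the annotated start) were available for 8 of the 10 genes, all but Hyou1 and Manf. The ER stress element ERSE (CCAAT and CCACG with 9 free bases between them, searched on both strands) lay in 5 of these 8 and in 39 of all 32851 promoter windows (0.119%). With the last base left free the element was also found in Pdia4, giving 6 of 8 against 120 windows (0.365%). The related ERSE-II (ATTGG, 1 free base, then CCACG) lay in Dnajb11 and in 12 windows (0.0365%). The elements are printed on the strand that reads 5′ to 3′ as the motif, with its fixed bases in capitals, so that the spacers can be compared.
Hspa5 (ERSE, -65 to -47): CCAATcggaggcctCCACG
Hsp90b1 (ERSE, -212 to -194): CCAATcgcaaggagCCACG
Hsp90b1 (ERSE, opposite strand, -107 to -89): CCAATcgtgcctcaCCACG
Dnajc3 (ERSE, -105 to -87): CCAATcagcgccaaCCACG
Creld2 (ERSE, opposite strand, -126 to -108): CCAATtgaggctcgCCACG
Pdia6 (ERSE, -98 to -80): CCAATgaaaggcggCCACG
Pdia4 (last base free, opposite strand, -108 to -90): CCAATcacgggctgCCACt
Dnajb11 (ERSE-II, 8 to 18 after the start): ATTGGcCCACG

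The 9-base spacers differed in sequence among the genes, while the outer parts were shared by construction of the search. Sdf2l1 held no ERSE or ERSE-II, although it held CCAAT and CCACG apart from each other. All 8 promoters held both of these short parts, which lay in 37.4% and 32.8% of all windows. None of the 8 held the UPRE core TGACGTGG (0.676% of all windows), the cAMP element TGACGTCA (1.79%) or the E-box CACGTG (7.15%). The 250 bases before the start are given for 4 genes that stand for the range seen: 1 element close to the start, a pair of elements, 1 on the opposite strand and none, with any ERSE in capitals as it reads on the gene's strand.
Hspa5 (chr2:34771840-34772089, plus strand): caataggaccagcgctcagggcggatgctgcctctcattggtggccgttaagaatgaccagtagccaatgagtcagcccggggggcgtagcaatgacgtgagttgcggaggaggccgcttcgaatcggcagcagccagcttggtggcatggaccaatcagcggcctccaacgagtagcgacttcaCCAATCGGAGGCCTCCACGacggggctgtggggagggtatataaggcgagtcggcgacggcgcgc
Hsp90b1 (chr10:86705445-86705694, minus strand): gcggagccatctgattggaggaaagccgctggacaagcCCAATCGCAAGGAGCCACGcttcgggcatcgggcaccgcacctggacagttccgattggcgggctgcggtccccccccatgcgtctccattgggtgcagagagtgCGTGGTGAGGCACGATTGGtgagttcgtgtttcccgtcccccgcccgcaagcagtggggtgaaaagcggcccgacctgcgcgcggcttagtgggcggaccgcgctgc
Creld2 (chr15:88819396-88819645, plus strand): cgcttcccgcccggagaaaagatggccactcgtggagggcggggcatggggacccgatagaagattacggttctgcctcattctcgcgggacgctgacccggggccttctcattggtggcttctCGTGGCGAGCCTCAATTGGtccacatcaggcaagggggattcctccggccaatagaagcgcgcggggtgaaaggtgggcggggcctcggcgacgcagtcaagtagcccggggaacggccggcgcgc
Sdf2l1 (chr16:17132384-17132633, minus strand): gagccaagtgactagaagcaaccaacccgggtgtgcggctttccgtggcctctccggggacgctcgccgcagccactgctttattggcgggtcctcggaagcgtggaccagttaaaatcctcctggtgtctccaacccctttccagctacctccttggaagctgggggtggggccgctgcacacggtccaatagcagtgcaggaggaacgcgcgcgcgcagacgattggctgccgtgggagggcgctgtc

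**Figure D1:**
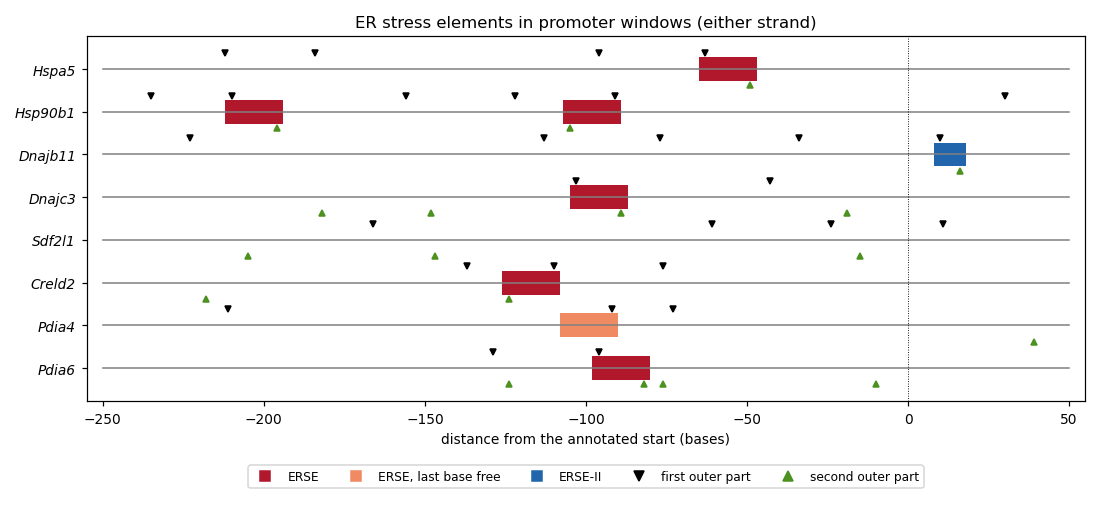
Position of ER stress elements in the promoter windows of 8 genes, in bases from the annotated start (horizontal axis), with boxes for whole elements and triangles for the outer parts CCAAT (pointing down) and CCACG (pointing up) on either strand. Whole ERSE elements lie between -212 and -47, Hsp90b1 has a pair and Sdf2l1 has none.

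Total counts were 22.5M to 29.0M in the young libraries (batch 1) and 14.6M to 43.9M in the aged (batch 2), so age and batch cannot be told apart. All 14 choroid epithelium markers were expressed, with a score (mean log2 CPM, counts scaled by library size) of 10.71 to 10.81 in the young group means and 9.68 to 10.54 in the aged. The libraries also held brain RNA: all 24 markers of neurons, oligodendrocytes and astrocytes were detected in each group, and their summed level was 224.7 to 890.1 CPM in young and 216.5 to 7497 CPM in aged libraries. J20+ day library 1 (3102 CPM) and J20+ night library 2 (1738 CPM) stand apart from the rest of their groups, with choroid epithelium scores of 10.0 and 9.32. Aged wild-type day library 3 was also far above the rest of its group in neural markers (3117 CPM against 216.5 to 635.7 CPM), with a choroid epithelium score of 10.39. In young mice the clock genes went with the labels of time, with Arntl at 2.50 ± 0.18 (log2 fold change ± SE, adjusted p = 4.47e-05, edgeR) and Nr1d1 at -3.02 ± 0.24 (8.59e-05) at night against day.

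Levels of the 10 genes are given as CPM scaled over all 28 libraries. Per kilobase of transcript, the chaperones Hsp90b1 (1050 CPM per kb at young day) and Hspa5 (478) were the most abundant of the 10, Hspa5 above 99.6% of 15819 genes ranked. Dnajc3 followed with 225, then Pdia4 with 129 and Pdia6 with 126, which lay within each other's spread, Dnajb11 with 72.5 and Manf with 49.4. Sdf2l1 (23.9), Hyou1 and Creld2 (11.8) were the lowest, and Creld2 lay above 67.0% of genes. The transcripts of Hspa5, Hsp90b1 and Dnajc3 had a GC content of 45.6%, 43.8% and 43.2%, under the median of 49.7% over genes tested, and those of Hyou1, Creld2 and Sdf2l1 had 53.8%, 54.8% and 56.7%.

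The first comparison, young night against young day, asks which of these genes differ with time of day. All 10 were higher at night on average, and 5 rose: the Hsp70 chaperone Hspa5, its exchange factor Hyou1, the J-protein partner Sdf2l1, and the secreted ER stress proteins Manf and Creld2. The other 5, Hsp90b1, Dnajb11, Dnajc3, Pdia4 and Pdia6, did not pass. Of all 14983 genes tested, 0.267% were called, 0.14% as higher at night. The median log2 fold change of the 10 was 0.53, against 0.02 over all genes tested, of which 53.9% were above 0. The 10 genes were chosen with earlier results of these data known. Their counts and medians beside those of all genes, here and below, are therefore descriptions and not an independent test.

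Hspa5 (Entrez 14828, chromosome 2, 34772090 to 34776529) read 1853, 1435, 1772 and 1958 CPM in the 4 young day libraries and 2916, 2406, 2506 and 3075 CPM at night. All night libraries lay above all day libraries. The log2 fold change was 0.65 ± 0.12 (SE, 4 mice per group, 95% interval 0.39 to 0.90, adjusted p = 0.0454 by edgeR's quasi-likelihood test).

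Hyou1 (Entrez 12282, chromosome 9, 44379490 to 44392369), a large Hsp70-like protein that exchanges nucleotide on BiP, read 74.6, 78.8, 71.9 and 61.6 CPM at day. At night it read 145.7, 146.2, 141.5 and 99.7 CPM, with library 4 between the other night libraries and the day libraries. It rose by 0.89 ± 0.13 (95% interval 0.60 to 1.19, adjusted p = 0.0175, edgeR).

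The J-proteins and their partners hand unfolded chains to BiP. Sdf2l1 (Entrez 64136, chromosome 16, 17130138 to 17132383), which forms a complex with the J-protein encoded by Dnajb11, read 26.9, 25.5, 27.4 and 26.1 CPM at day and 49.7, 46.6, 46.9 and 46.1 CPM at night. Both groups were narrow and did not overlap, and Sdf2l1 rose by 0.84 ± 0.11 (0.61 to 1.08, adjusted p = 0.00509, edgeR). Dnajb11 (ERdj3) itself read 187.5, 176.2, 194.0 and 170.9 CPM at day and 268.4, 250.1, 238.0 and 204.5 CPM at night. These libraries did not overlap either, yet the difference of 0.40 ± 0.08 (0.23 to 0.58) did not pass, with an adjusted p of 0.0785 (edgeR). Dnajc3 (p58IPK), a J-protein that also inhibits PERK, read 1176, 1036, 1154 and 1255 CPM at day and 1302, 1139, 1177 and 1374 CPM at night. Its groups overlapped, and the difference was 0.12 ± 0.10 (-0.10 to 0.34, adjusted p = 0.713, edgeR).

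Manf (Entrez 74840, chromosome 9, 106888753 to 106891938), a protein that stabilises client complexes of BiP and is also secreted, had the smallest p-value of the 10. It read 117.3, 102.3, 114.2 and 110.3 CPM at day and 222.9, 202.4, 196.3 and 188.7 CPM at night. The night libraries lay far above the day libraries, and Manf rose by 0.87 ± 0.08 (0.71 to 1.04, adjusted p = 2.10e-04, edgeR). Creld2 (Entrez 76737, chromosome 15, 88819646 to 88826681), a secreted ER stress protein with epidermal growth factor-like domains, read 15.5, 17.9, 17.3 and 14.0 CPM at day and 35.7, 33.2, 30.4 and 24.7 CPM at night. It rose by 0.94 ± 0.13 (0.65 to 1.23, adjusted p = 0.0107, edgeR), with groups that did not overlap.

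Hsp90b1, the ER form of Hsp90, read 3199, 2302, 3071 and 3313 CPM at day and 3695, 3081, 3149 and 3977 CPM at night. Day and night overlapped, at a difference of 0.24 ± 0.14 (-0.06 to 0.54, adjusted p = 0.611, edgeR). The protein disulfide isomerase Pdia6 read 282.5, 274.7, 286.9 and 255.5 CPM at day and 417.0, 384.6, 359.8 and 302.3 CPM at night. Its groups did not overlap, but the difference of 0.42 ± 0.09 (0.22 to 0.61) had an adjusted p of 0.108 (edgeR). The isomerase Pdia4 overlapped, with 325.7, 326.0, 324.4 and 260.5 CPM at day, 452.7, 367.0, 377.6 and 270.2 CPM at night and a difference of 0.25 ± 0.13 (adjusted p = 0.573, edgeR).

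Counted by library rather than by test, night lay wholly above day in 7 of the 10 genes, all but Hsp90b1, Dnajc3 and Pdia4, and this held under each of 3 scalings of library size. Over all genes tested 1.71% did so. Among the 8 genes with a promoter window, Hspa5 and Creld2, with an ERSE, and Sdf2l1, without one, rose. Those that did not pass were Hsp90b1, with a pair of elements, Dnajc3 and Pdia6, with an ERSE, Pdia4 (last base free) and Dnajb11 (ERSE-II). Only matches to the letters searched were counted, and the part of the elements in the rise was not tested. The macrophage marker score of night library 4 was 3.30, with a summed level of 338.8 CPM against 40.13 to 88.53 CPM in the other young day and night libraries. Its neural markers were also higher, at 890.1 CPM against 267.6 to 503.6 CPM. Its choroid epithelium score was lower, at 10.57 against 10.69 to 10.87. Without this library 7 of the 10 genes and 109 of all genes were called, with Dnajb11 (0.46, adjusted p = 0.0181) and Pdia6 (0.48, 0.0238) added. Without day library 1, 3 or 4, or night library 1, 2 of the 10 were called, and without night library 3, 3 were, with 15 to 22 of all genes called in these fits.

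**Figure D2:**
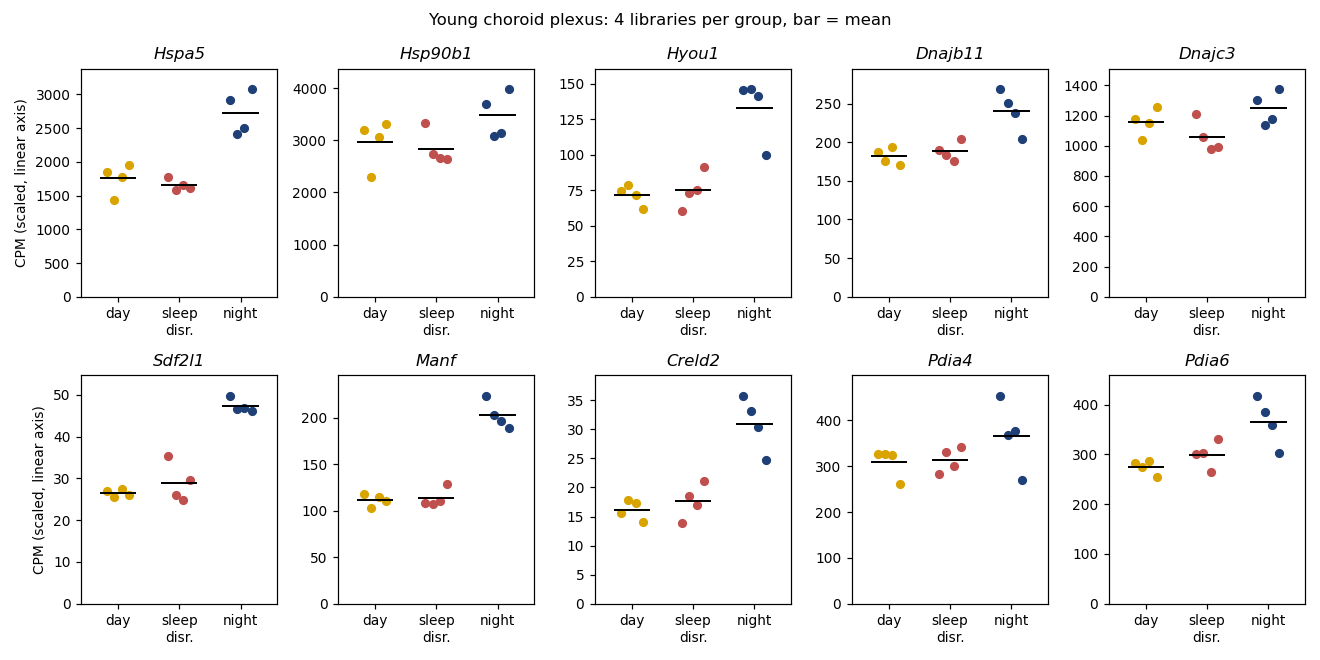
Level of each gene in scaled CPM (vertical axis, linear, from 0) in the 12 young libraries, with points for libraries and a bar for the mean of each group of 4. Night lies above day and sleep disruption in Hspa5, Hyou1, Sdf2l1, Manf and Creld2, and the day and sleep disruption points overlap in all 10 genes.

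Sleep disruption at ZT 6 was compared with undisturbed day to set time of day apart from sleep. None of the 10 genes was called by edgeR, as none of 14983 genes was (0% called, 2.40% at an unadjusted p under 0.05), nor by DESeq2 or limma-voom. The differences ran from -0.13 to 0.13 on the log2 scale, with a median of 0.04. Manf read 108.4, 106.9, 110.7 and 128.8 CPM after sleep disruption, overlapping the day libraries, and its difference of 0.03 ± 0.08 had a 95% interval of -0.14 to 0.20. Hspa5 read 1780, 1577, 1655 and 1608 CPM, a difference of -0.09 ± 0.11 (-0.34 to 0.16). Sdf2l1 had the highest value of the 10, 0.13 ± 0.11 (-0.11 to 0.36), with 35.4 CPM in library 1 and 24.8 to 29.6 CPM in the other 3.

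The comparison of night with the sleep-disrupted group shares the night libraries with the first. The genes called were again Hspa5 (0.73 ± 0.12, adjusted p = 0.0178), Hyou1 (0.84 ± 0.13, 0.0192), Sdf2l1 (0.72 ± 0.11, 0.0141), Manf (0.84 ± 0.08, 2.55e-04) and Creld2 (0.83 ± 0.13, 0.0201), 5 of 10 where 0.38% of all genes were called (edgeR, n = 4 per group). In each of these 5 the night libraries lay wholly above the sleep-disrupted ones, as 3.5% of all genes did. Dnajb11 (0.36 ± 0.08, 0.109), Pdia6 (0.30 ± 0.09, 0.281) and the other 3 did not pass. Without night library 1, or sleep-disrupted library 2 or 3, 1 of the 10 was called. The count was 2 without night library 3, and 3 without night library 2 or sleep-disrupted library 1 or 4, with 22 to 38 of all genes called in these fits.

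Aged wild-type night was compared with aged wild-type day. None of the 10 genes was called, where 2 of 16065 genes were (0.0124%) and 31.1% had an unadjusted p under 0.05. The genes parted in direction: Manf, Creld2 and Sdf2l1 had positive values and the other 7 negative ones, with a median of -0.36 against 0.03 over all genes. Positive values were seen in 52.1% of all genes.

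Creld2 read 55.3, 42.4, 54.2 and 31.1 CPM at day and 65.6, 64.6, 79.8 and 80.1 CPM at night. These libraries did not overlap, and the difference was 0.70 ± 0.23 (95% interval 0.22 to 1.18, adjusted p = 0.144, edgeR). Manf read 160.0, 127.9, 139.0 and 81.5 CPM at day and 156.9, 138.9, 233.1 and 193.8 CPM at night, with overlap, at 0.54 ± 0.23 (0.05 to 1.03, adjusted p = 0.148, edgeR). Dnajc3 lay the other way, with 501.8, 337.3, 339.7 and 661.5 CPM at day and 226.8, 114.4, 245.9 and 133.7 CPM at night. Every night library was below every day library, at -1.34 ± 0.50 (-2.40 to -0.28, adjusted p = 0.144, edgeR). Of all genes 17.5% lay wholly lower and 9.38% wholly higher at night in this comparison.

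Hspa5 read 2026, 1528, 1607 and 1032 CPM at day and 1307, 768.8, 1635 and 862.2 CPM at night, overlapping, at -0.42 ± 0.35 (adjusted p = 0.371, edgeR). The aged wild-type night libraries held more brain RNA on average, with overlap between night and day in neural markers. The neural score was 6.02 ± 1.27 (SD, n = 4) at night and 3.08 ± 1.77 at day. The summed level of the 24 markers was 1085 to 7497 CPM at night and 216.5 to 3117 CPM at day. The choroid epithelium score was 9.68 ± 0.35 at night and 10.54 ± 0.18 at day. In bulk tissue, fewer cells of a type and less RNA per cell cannot be told apart. With the neural score as a covariate the differences were -0.47 for Dnajc3, -0.17 for Hspa5, 0.52 for Manf and 0.51 for Creld2, none of them called.

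**Figure D3:**
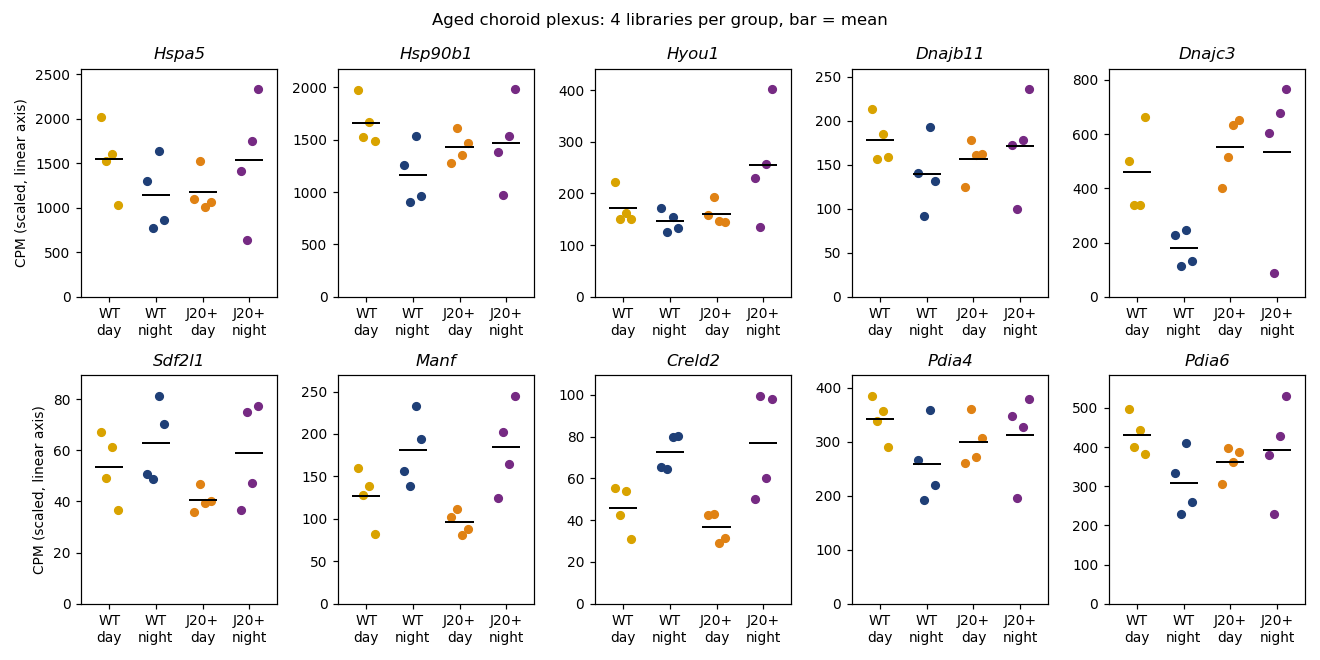
Level of each gene in scaled CPM (vertical axis, linear, from 0) in the 16 aged libraries, with points for libraries and a bar for the mean of each group of 4. Creld2 lies wholly higher at night in both genotypes, Manf in J20+ mice, and Dnajc3 wholly lower at night in wild-type mice, with J20+ night library 2 at 86.5 CPM.

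J20+ night was compared with J20+ day. None of the 10 was called, where 0.0436% of all genes were, and 9 of 10 had positive values with a median of 0.29 against 0.02 over all genes. Positive values were seen in 52.6% of all genes. Manf read 102.2, 111.7, 80.8 and 88.2 CPM at day and 125.1, 202.7, 164.2 and 244.5 CPM at night. The libraries did not overlap, and the difference was 0.98 ± 0.23 (95% interval 0.48 to 1.47, adjusted p = 0.371, edgeR). Creld2 read 42.4, 42.9, 29.1 and 31.6 CPM at day and 50.1, 99.3, 60.3 and 98.0 CPM at night, again without overlap, at 1.11 ± 0.23 (0.62 to 1.59, adjusted p = 0.213, edgeR). Of all genes 1.62% lay wholly higher at night here. Hyou1 (0.71 ± 0.26, adjusted p = 0.652) and Sdf2l1 (0.57 ± 0.25, 0.652) overlapped between day and night. DESeq2 called 2 of the 10 and 79 of all genes, and limma-voom with quality weights 3 and 228.

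J20+ and wild-type mice were compared at each time. At day none of the 10 was called (0% of all genes), and 9 of 10 had negative values, from -0.40 for Manf to -0.08 for Hyou1, with Dnajc3 at 0.27 ± 0.49. Among all genes 54.6% lay above 0 at day. At night none was called either (0.00622% of all genes). The highest values were those of Dnajc3 (1.60 ± 0.50, 95% interval 0.54 to 2.67) and Hyou1 (0.83 ± 0.26, 0.28 to 1.38), with an adjusted p of 0.0917 each (edgeR), while Manf (0.04 ± 0.23), Creld2 (0.10 ± 0.22) and Sdf2l1 (-0.07 ± 0.25) lay near 0. Dnajc3 read 605.3, 86.5, 678.8 and 765.0 CPM in the J20+ night libraries. Library 2 lay below all wild-type night libraries and the other 3 above them.

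The count at night moved with that library and with the tool. Without J20+ night library 2, 7 of the 10 genes were called as higher in J20+ mice, but 9414 of all genes were called as well. With that library kept, limma-voom called 7 of the 10 and 11518 of all genes, and DESeq2 2 and 2978. In the edgeR fit without J20+ night library 2, the 3 not called were Manf (0.02), Creld2 (-0.03) and Sdf2l1 (-0.18). Dnajc3 was at 1.97 in that fit (adjusted p = 0.00166, edgeR). With the neural score as a covariate none was called, with Dnajc3 at 0.53 and Hyou1 at 0.56. The neural score of wild-type night libraries was 6.02 ± 1.27, and that of J20+ night libraries 2.82 ± 1.78. J20+ night library 2 had neural markers at 1738 CPM. Wild-type night libraries 1, 2 and 4, at 7497, 5244 and 3759 CPM, stayed in the fit without that J20+ library. The difference between the genotypes in the night to day change was not called for any of the 10 (0% of all genes called, 12.4% at an unadjusted p under 0.05), with the highest value in Dnajc3 (1.33 ± 0.69). Without J20+ night library 2, 4 of the 10 and 3409 of all genes were called.

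**Figure D4:**
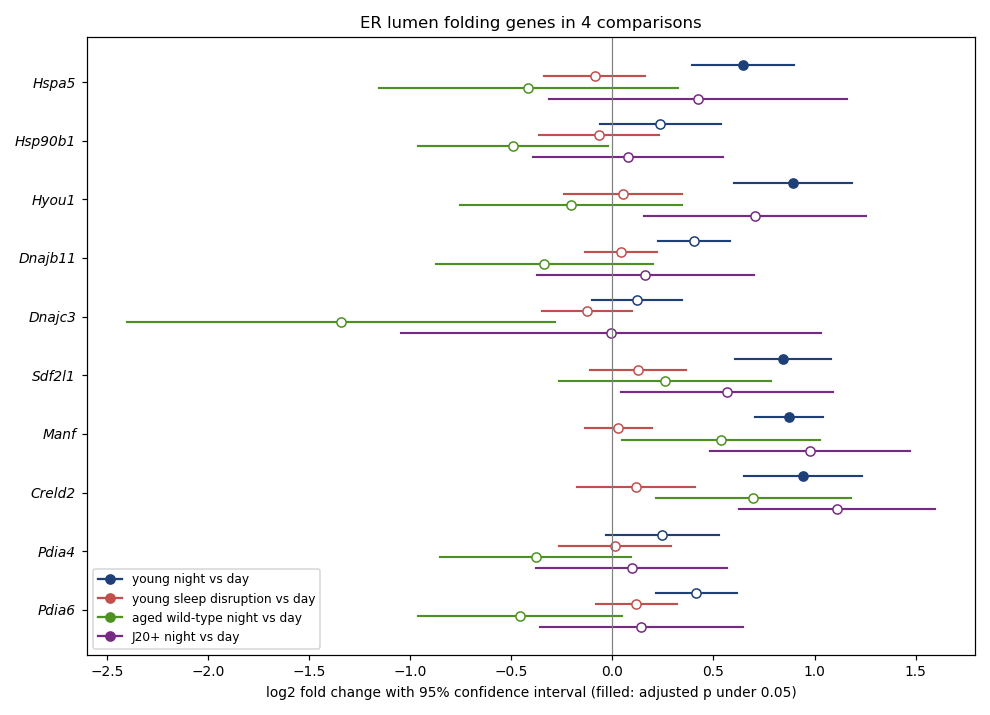
Log2 fold change (horizontal axis) of each gene in 4 comparisons, with 95% confidence intervals, filled where the adjusted p is under 0.05. Night against day in young mice is filled for Hspa5, Hyou1, Sdf2l1, Manf and Creld2. In aged wild-type mice the intervals are wider and 7 of 10 points lie under 0.

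The change from day to night was averaged over the 3 cohorts (young, aged wild type and J20+) in a fit of all 28 libraries. Creld2 (0.89 ± 0.12, 95% interval 0.65 to 1.14, adjusted p = 1.07e-04), Manf (0.77 ± 0.11, 0.54 to 1.00, 2.55e-04) and Sdf2l1 (0.54 ± 0.12, 0.29 to 0.78, 0.0153) rose (edgeR, n = 12 and 12), where 3.15% of all genes were called and 1.52% as higher. Hyou1 (0.44 ± 0.13, 0.0527) did not pass, Hspa5 was at 0.19 ± 0.16, and Dnajc3 was at -0.43 ± 0.22 (0.189). Between 3 and 4 of the 10, and 200 to 1371 of all genes, were called when each of the 24 libraries was left out in turn. The night to day change of aged wild-type mice minus that of young mice was negative for all 10, from -0.27 ± 0.29 for Creld2 to -1.46 ± 0.53 for Dnajc3, and none was called (0% of all genes, 17.3% at an unadjusted p under 0.05). Of all genes 45.7% lay above 0 in this contrast. For J20+ minus young mice the values ran from -0.30 for Pdia6 to 0.14 for Creld2, with none called (0% of all genes).

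Levels also differed between the young and aged libraries, where age and batch cannot be told apart. At day Dnajc3 was at 1155 ± 90.4 CPM in young and 460.1 ± 154.8 CPM in aged wild-type mice (SD, n = 4 per group), and Hsp90b1 at 2971 ± 456.8 and 1664 ± 222.4 CPM. Hyou1 lay the other way, at 71.7 ± 7.31 and 171.5 ± 34.2 CPM, as did Creld2 at 16.2 ± 1.75 and 45.7 ± 11.4 CPM. Dnajb11 stayed close, at 182.2 ± 10.5 and 178.5 ± 27.04 CPM. Of these, Dnajc3 and Hsp90b1 have transcripts of low GC content and Hyou1 and Creld2 of high GC content. Pdia6, with a GC content of 48.9%, was higher in aged mice, at 274.9 ± 13.9 and 430.3 ± 51.6 CPM. Hspa5, with 45.6%, was at 1755 ± 226.4 and 1548 ± 407.9 CPM. The part of GC content in these differences was not tested.

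The 10 genes did not vary as 1 block among mice of a group. Over the 12 young libraries, as deviations from group means, Hspa5, Hsp90b1 and Dnajc3 went together (Pearson r of 0.866 to 0.956), and Hyou1 and Creld2 went together (0.926) but against them (r of -0.596 to -0.803). Dnajb11 and Pdia6 had an r of 0.967, and Pdia4 had 0.845 to 0.869 with them. Dnajb11, Pdia6 and Pdia4 also went with Hyou1 and Creld2 (0.692 to 0.858). The first of these sets has transcripts of low GC content, and Hyou1 and Creld2 have transcripts of high GC content, but other members went differently. Sdf2l1 (GC content 56.7%) had an r of 0.311 to 0.552 with the first set, and -0.192 and -0.248 with Hyou1 and Creld2. Pdia4 (47.6%) had 0.853 and 0.858 with Hyou1 and Creld2. All points share libraries and their depth, and the part of GC content in these r values was not tested. Corrected for GC content, 6 of the 10 and 122 of all genes were called in young night against day: Dnajb11 (0.37, adjusted p = 0.0209) and Pdia6 (0.41, 0.0417) joined, and Sdf2l1, the transcript with the highest GC content of the 10, was at 0.67 with an adjusted p of 0.155 (edgeR).

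In the 16 aged libraries the grouping differed. Manf, Creld2 and Sdf2l1 went together (r of 0.880 to 0.925 for deviations from group means), and Hspa5, Hsp90b1, Dnajb11, Pdia4 and Pdia6 formed the other set (0.895 to 0.982), joined by Hyou1 (0.774 to 0.903). Dnajc3 also went with that set (0.724 to 0.835). With the same genes, leaving out Dnajc3, Creld2 had an r of 0.027 to 0.175, Sdf2l1 0.186 to 0.320 and Manf 0.347 to 0.461. With Dnajc3, Creld2 had -0.448, Sdf2l1 -0.273 and Manf -0.165. Levels over all 16 libraries moved with the choroid epithelium score for Dnajc3 (r = 0.96), Pdia6 (0.86) and Hsp90b1 (0.85), and against it for Creld2 (-0.58) and Manf (-0.43), and the part of tissue makeup in this was not tested.

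**Figure D5:**
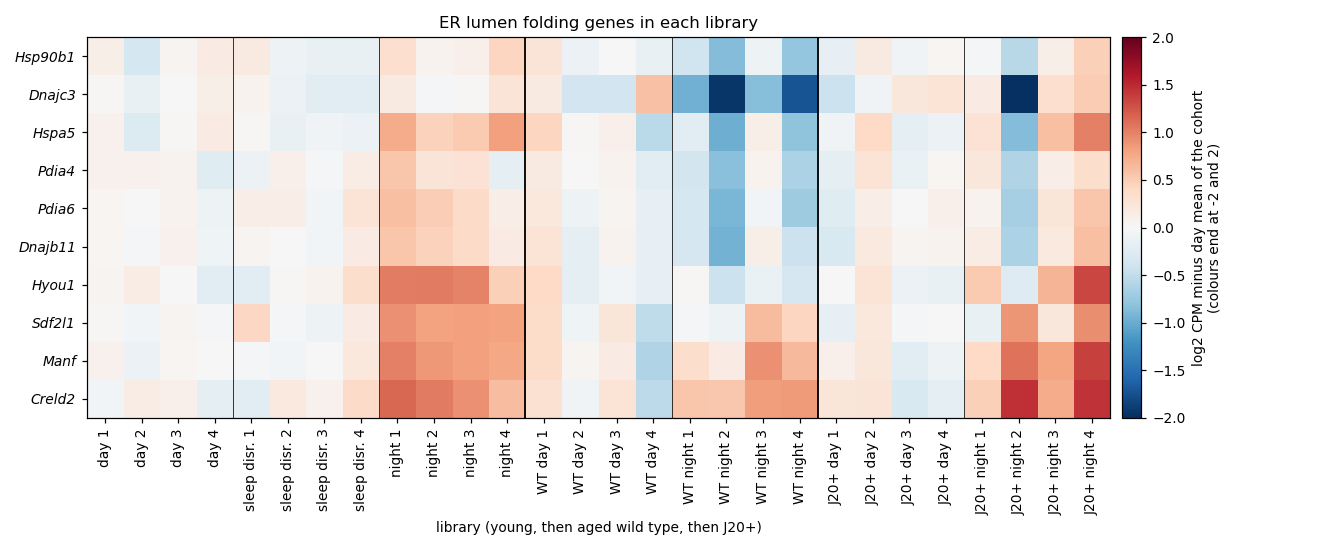
Difference of log2 CPM of each gene (rows) in each of 28 libraries (columns) from the mean of the day libraries of its cohort, as colour from -2 (blue) to 2 (red), with values beyond these ends shown at the end colours. Young night columns are red for Hyou1, Sdf2l1, Manf, Creld2 and Hspa5, while in aged wild-type night columns Dnajc3 is blue and Creld2 red.

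Genes whose level over the 12 young libraries was most like the mean of the 10 were ranked among the 9907 genes whose mean log2 CPM was 3 or more. The likest was Xbp1 (Pearson r = 0.972), the transcription factor of the IRE1 branch. Also among the likest was Sel1l (0.953), which serves the removal of misfolded proteins from the ER. Slc16a6 (0.952), Arntl (0.947), Nfil3 (0.939), the ER lectin chaperone Calr (0.936), Cry1 (0.935), Npas2 (0.934) and Ttc41 (0.928) had lower values. Over the 16 aged libraries the r was 0.862 for Calr, 0.678 for Slc16a6, 0.667 for Sel1l and 0.603 for Xbp1. It was 0.066 to 0.368 for the clock genes Nfil3, Arntl, Npas2 and Cry1, and -0.385 for Ttc41. Among the 10 themselves, Manf was closest to the mean of the other 9 in young libraries (r = 0.986) and Dnajc3 farthest (0.484). In the 16 aged libraries Hspa5 was closest (0.92) and Creld2 farthest (0.058), with Manf at 0.269 and Dnajc3 at 0.346. These r values are descriptions, since all genes share the contrast of day and night.

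Neighbouring gene groups in young night against day are counts of the same kind. Of 28 other ER folding genes none was called, 20 were above 0 and the median was 0.13, with Calr (0.60 ± 0.12, adjusted p = 0.0793) and the isomerase Pdia5 (0.96 ± 0.25, 0.187) nearest to the threshold (edgeR). Among all genes tested 53.9% were above 0. Of 16 sensors and factors of the unfolded protein response 1 rose, Xbp1 (0.80 ± 0.09, adjusted p = 0.00210), and the median was 0.15. Of 17 genes of ER-associated degradation 1 rose, Sel1l (0.35 ± 0.06, adjusted p = 0.0276). None was called of 24 genes of translocation and glycosylation (median 0.04), 18 of ER to Golgi transport (0.01), 17 cytosolic chaperones (0.25) and 8 mitochondrial chaperones (0.06). The smallest p-values in these were those of Ostc (0.15 ± 0.06) and Ssr1 (-0.15 ± 0.08), Kdelr2 (-0.22 ± 0.14) and Surf4 (0.12 ± 0.10), Hsph1 (0.47 ± 0.12) and Hspb1 (0.77 ± 0.22), and Hspa9 (-0.22 ± 0.06) and Hspd1 (-0.08 ± 0.07). The paralogs of 3 of the 10 were not called: Sdf2 was at 0.25 ± 0.18, Cdnf, the paralog of Manf, at -0.22 ± 0.16, and Creld1 at 0.43 ± 0.18.

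In the change averaged over the 3 cohorts, other genes of the ER stress response passed. Xbp1 (0.69 ± 0.09, adjusted p = 1.08e-04) and Ddit3 (CHOP, 0.67 ± 0.14, 0.0135) rose, 2 of 17 sensors and factors (edgeR, 3.15% of all genes called). Syvn1 (0.74 ± 0.15), the ubiquitin ligase that works with Sel1l, Herpud1 (0.44 ± 0.12) and Derl3 (0.94 ± 0.24) rose, 3 of 17 degradation genes, and Creld1 rose by 0.47 ± 0.10, 1 of 28 other folding genes. The cytosolic heat shock genes Hspa1a (1.11 ± 0.28), Hspa1b (1.70 ± 0.43) and Hspb1 (0.75 ± 0.18) rose too, 3 of 17, and none of the 8 mitochondrial chaperones did. Hspa1a and Hspa1b are near-identical copies whose reads may be split between them. Derl3 is also a plasma cell marker, and the summed level of the 9 plasma and B-cell markers was 9.07 to 17.6 CPM in young and 21.6 to 54.3 CPM in aged libraries.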

How the data were processed

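Poly(A) RNA of 28 choroid plexus samples was made into stranded libraries, per the labels' protocols. The tables deposited hold a raw count for each Entrez gene. The submitters' processing notes name mm10, featureCounts 2.0.1, HISAT2 2.2.1, DESeq2, Picard 2.18.2, cutadapt and FastQC 0.11.8, with no order of use. The strand setting, annotation and treatment of reads with several alignments are each not given in the sources used here, so Hspa5 and Rabepk, which overlap by 1921 bases, may share reads. All 28 count columns were used, and 25275 of 27179 identifiers (93.0%) matched a RefSeq symbol (GRCm38.p6).

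Genes were filtered (filterByExpr), scaled by TMM and tested with edgeR 4.0.16 (robust quasi-likelihood, R 4.3.3) on 12 young, 16 aged or all 28 libraries, with Benjamini-Hochberg adjustment over all genes tested and a threshold of 0.05. SE is the log2 fold change over the square root of F. Log2 CPM has a prior count of 2. Marker scores average the log2 CPM over a list. Mice are separate animals, and their number limits the precision. The code was tested on simulated data. The 10 genes and all lists were chosen with earlier results of these data known. Named by rule are the 10 genes, their paralogs, called members of the neighbouring lists (the 2 with the smallest p where none was called) and the 10 genes most alike, 1 of which is not reported here. Alternatives were RLE scaling, DESeq2 1.42.0, limma 3.58.1 voom with quality weights, no filter, only the compared groups, the neural score as covariate, and leaving out each library or both J20+ libraries that stand apart; a GC correction (loess span 0.3) and leaving out aged wild-type day library 3 with those 2 were chosen after seeing the data. Protein sequences were not used here.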

Additional observations from a re-analysis of the deposited data

Results flagged for a closer look

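In 4 of 70 gene and group pairs, 1 of the 4 libraries lay far from the other 3 (Dixon's criterion), where chance gives about 3.5. Hsp90b1 read 3329 CPM in young sleep-disrupted library 1 against 2641 to 2732 in the others. Hyou1 read 99.67 CPM in young night library 4 against 141.5 to 146.2. Dnajc3 read 86.51 CPM in J20+ night library 2 against 605.3 to 765.0. Pdia4 read 260.5 CPM in young day library 4 against 324.4 to 326.0.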

How the results depend on the processing

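Manf was called in all 15 alternatives in young night against day and in all 15 against sleep disruption, and Manf and Creld2 in all 32 of the average over cohorts. In young night against day Sdf2l1 was called in 14 of 15, Creld2 in 10, Hyou1 in 8 and Hspa5 in 7. Of 2170 values of the 10 genes under the alternatives, 78 had the other sign, in 30 of 110 pairs of gene and comparison. None of the 78 was called, either there or as reported, and they ran up to 0.352 in size. Among them, Sdf2l1 in aged wild-type night against day was -0.012 with the GC correction, and Dnajb11 and Pdia6 in J20+ against wild type at night were -0.081 and -0.024 with the neural covariate.

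The count of the 10 genes called, with that of all genes in brackets, moved from 5 (40) in young night against day to 8 (2646) with voom and 2 (13) with only the compared groups, and from 5 (57) against sleep disruption to 9 (1083) and 1 (16). In aged wild-type night against day it moved from 0 (2) to 7 (8098) with voom, 2 (4033) with only the compared groups and 4 (7155) without both J20+ libraries that stand apart. In J20+ night against day 0 (7) became 2 (79) with DESeq2 and 3 (228) with voom. In J20+ against wild type at day 0 (0) became 1 (1953) with voom, and at night 0 (1) became 2 (2978) with DESeq2, 7 (11518) with voom and 7 (10135) without both J20+ libraries. Kept in that last fit were wild-type night libraries 1, 2 and 4, with neural markers at 7497, 5244 and 3759 CPM. The 2 J20+ libraries left out were at 3102 and 1738 CPM. The interaction, at 0 (0), gave 7 (5026) with voom. The average over cohorts, at 3 (523), gave 5 (5982) with voom. Aged wild-type minus young mice, at 0 (0), gave 9 (5678) with voom and 7 (3022) without both J20+ libraries. With aged wild-type day library 3 left out as well, a choice made after seeing the data, the counts were 3 (7865) in aged wild-type night against day, 7 (10077) in J20+ against wild type at night, 2 (3189) in the interaction, 5 (2983) in the average and 7 (4680) in aged wild-type minus young mice. Leaving out each library in turn gave 2 to 7 (15 to 109) in young night against day, 1 to 6 (22 to 86) against sleep disruption, 0 to 7 (0 to 9414) in J20+ against wild type at night, 0 to 4 (0 to 3409) in the interaction, 3 to 4 (200 to 1371) in the average, and 0 in the other 6 comparisons. The causes were not tested.

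Where the count of the 10 stayed within 1.5 times, that of all genes still moved: in young night against day to 260 with DESeq2 and 122 with the GC correction, against sleep disruption to 312, 191 and, with the neural covariate, 90, in aged wild-type night against day to 1390 with DESeq2, and in the average to 1673 with DESeq2, 1626 without both J20+ libraries, 345 with no filter and 309 with the neural covariate.

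No paired analysis was possible because replicate numbers follow record order and link no mice. With 4 mice per group, a difference in the aged groups, where levels of the 10 genes vary by 10.3% to 57.2% within a group against 3.11% to 20.4% in young, can go undetected.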
